A study of Mus musculus with 12 samples.

Results

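The genes described here are 43 genes of DNA replication and mitosis, 22 of replication and 21 of mitosis. They were chosen by symbol from the 24493 gene symbols of a table of RNA abundance, with earlier results of these data known. All 43 were among the 13662 genes that passed the filter on low values, which asked for 1 TPM or more in 3 or more libraries. The 12 libraries hold total RNA of mouse pancreatic tumour cells named 6649c2, of the C57BL/6 strain, which were grown as tumours under the skin and then sorted. There were 3 libraries for each of 4 genotype labels: WT, with no gene knocked out, and EgfrKO, Klf5KO and Smad4KO, in which the epidermal growth factor receptor, a Krüppel-like transcription factor and the central Smad of TGF-β and BMP signalling were the labelled targets. The labels name no other allele or treatment in any group. They do not say how the knockouts were made or whether a knockout line is 1 clone or a pool, so a difference between genotypes and a difference between clones cannot be told apart. The study compared the knockout cells with WT cells, and the question here is how the genes of DNA synthesis and of cell division differed between the genotypes.

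A dividing cell copies its genome in S phase and separates the copies in M phase, and the genes for these tasks are transcribed in successive waves. Before S phase, E2F transcription factors induce the genes for licensing origins, unwinding DNA, supplying nucleotides and joining new strands. Later, in G2 phase, the MuvB complex with B-MYB and then FOXM1 induces the genes for the spindle, the kinetochore and the cyclins of mitosis, through a promoter element called the cell cycle genes homology region (CHR), often beside a CCAAT box bound by NF-Y. In resting cells the DREAM complex holds both sets of genes down. In a tumour the summed RNA of these genes is commonly read as a sign of how many cells are cycling. In bulk RNA, fewer cycling cells and less RNA of these genes per cell cannot be told apart.

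The promoters of the members differ in the elements they hold, and a few are printed because they show the letters that set the mitosis genes apart from the replication genes. RefSeq promoter windows, on the build GRCm38.p6 (mm10 is its other name), from 250 bases before the start of transcription to 50 after it, were matched by symbol for 18 of 22 replication genes (22 windows, some genes having more than 1 start) and 18 of 21 mitosis genes (18 windows). The sequences run 5′ to 3′ on the strand of the gene, and capitals mark CHR elements (TTTGAA or TTTAAA, or TTCAAA on the other strand), CCAAT boxes (CCAAT, or ATTGG on the other strand) and E2F sites (TTTGGCGC, TTTCGCGC, TTTCCCGC or TTTGCCGC, on either strand). In Mcm5 and in the upstream pair of Mcm6 an E2F site on each strand overlaps the other, so their capitals run together. The first 5 stretches belong to mitosis genes and the last 4 to replication genes.
Top2a, chr11:99024190-99024309, minus strand: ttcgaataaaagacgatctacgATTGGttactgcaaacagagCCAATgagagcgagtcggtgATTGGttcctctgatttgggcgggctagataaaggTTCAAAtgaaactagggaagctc
Ccnb1, chr13:100786487-100786606, minus strand: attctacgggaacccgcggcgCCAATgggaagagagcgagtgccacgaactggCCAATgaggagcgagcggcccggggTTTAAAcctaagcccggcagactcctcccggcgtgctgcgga
Cdc20, chr4:118437344-118437423, minus strand: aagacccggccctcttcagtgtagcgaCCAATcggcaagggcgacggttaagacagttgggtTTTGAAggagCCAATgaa
Kif11, chr19:37376302-37376381, plus strand: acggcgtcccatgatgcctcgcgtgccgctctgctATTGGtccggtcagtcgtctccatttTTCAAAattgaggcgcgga
Plk1, chr7:122159335-122159434, plus strand: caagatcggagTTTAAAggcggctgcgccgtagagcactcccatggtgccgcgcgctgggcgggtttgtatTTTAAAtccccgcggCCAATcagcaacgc
Mcm5, chr8:75109349-75109508, plus strand: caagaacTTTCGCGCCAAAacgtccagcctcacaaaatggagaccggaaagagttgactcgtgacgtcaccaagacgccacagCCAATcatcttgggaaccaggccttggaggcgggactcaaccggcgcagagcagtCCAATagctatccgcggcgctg
Mcm6, chr1:128359706-128359825, minus strand: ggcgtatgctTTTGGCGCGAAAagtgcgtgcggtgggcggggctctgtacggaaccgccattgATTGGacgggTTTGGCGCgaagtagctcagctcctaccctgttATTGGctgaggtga
Pola1, chrX:93632156-93632305, minus strand: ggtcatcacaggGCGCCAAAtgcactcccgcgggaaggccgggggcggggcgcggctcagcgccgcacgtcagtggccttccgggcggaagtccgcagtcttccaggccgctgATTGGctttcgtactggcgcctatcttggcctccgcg
Rrm2, chr12:24708174-24708253, plus strand: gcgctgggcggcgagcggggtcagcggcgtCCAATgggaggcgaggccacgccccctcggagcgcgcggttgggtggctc

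A CHR element stood in 16 of 18 mitosis windows (88.9%) and 5 of 22 replication windows (22.7%), against 27.6% of the 32851 promoter windows of all genes. An E2F site stood in 9 of 22 replication windows (40.9%) and 1 of 18 mitosis windows (5.56%), against 2.26% of all windows. CCAAT boxes were in 88.9% of mitosis windows, 59.1% of replication windows and 37.4% of all windows, and a CHR element together with a CCAAT box was in 83.3%, 18.2% and 10.7%. Of the replication promoters shown, that of Rrm2 holds in its window a CCAAT box, a CHR spelling (TTTAAA) at the start of transcription, just past the stretch printed, and no E2F site of these spellings. The Mcm5 window also holds a CHR spelling (TTTAAA), further upstream than the stretch printed. A match describes letters in a window and is not evidence of a bound site.

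In the libraries labelled EgfrKO, Egfr stood at 4.29 ± 0.759 TPM (SD, n = 3) against 13.1 ± 0.85 in WT, and in those labelled Smad4KO, Smad4 stood at 30.7 ± 2.39 against 75.5 ± 4.45. Egfr was also lower in the other knockouts, at 6.93 ± 1.45 TPM in Klf5KO and 7.95 ± 1.88 in Smad4KO libraries. As measured the EgfrKO libraries, at 3.77 to 5.16 TPM, lay below the Klf5KO libraries, at 5.45 to 8.35. With the correction for length and GC content described below the log2 difference of EgfrKO from Klf5KO libraries was -0.02 (adjusted p = 0.93, limma). Whether Egfr RNA tells EgfrKO from every other group thus depends on the processing. Klf5 stood at 93.8 ± 6.35 TPM in the libraries labelled Klf5KO, 112 ± 16.8 in WT and 84.9 ± 3.55 in EgfrKO. It was called lower than WT in Klf5KO (-0.25, or -0.60 after scaling) and in EgfrKO libraries (-0.39, or -0.54), so its RNA does not tell the Klf5KO label from EgfrKO, and the former are called Klf5KO-labelled. TPM is a share of a library and keeps no read depth, so the depth is unknown. The simple epithelial keratins Krt8, Krt18 and Krt19 were high in every library, with lowest values of 1820, 1810 and 714 TPM. Krt7 was not, at 58 to 63.8 TPM in WT, 153 to 166 in EgfrKO, 131 to 135 in Smad4KO and 3.67 to 6.33 in Klf5KO-labelled libraries. The 8 epithelial markers summed to 5426 to 5884 TPM in WT, 7341 to 7844 in EgfrKO, 4580 to 5112 in Klf5KO-labelled and 7847 to 8814 in Smad4KO libraries. Of the 7 tested, 4 were called higher and 2 lower in EgfrKO, 1 and 5 in Klf5KO-labelled and 7 and 0 in Smad4KO cells as measured. Of all genes 31.3%, 55.2% and 32.2% were higher and 12%, 11.1% and 17.4% lower. After the scaling described below the counts were 4 and 2, 1 and 6, and 7 and 0. The shares of all genes were then 18%, 24.6% and 25.1% higher and 22.2%, 27.5% and 24.7% lower. The epithelial marker Epcam stood at 13.5 TPM in WT, 39.5 in Smad4KO, 1.3 in EgfrKO and 0.539 in Klf5KO-labelled cells. Fibroblast markers (13 genes) summed to 226 to 290.8 TPM in WT, 307.7 to 330 in EgfrKO, 596.6 to 1022 in Klf5KO-labelled and 137.2 to 179.9 in Smad4KO libraries. Macrophage markers (10 genes) summed to 745.4 to 1479, 1258 to 1355, 1065 to 1695 and 184.8 to 813.6 in the same order, where the lowest value, 184.8, is that of Smad4KO replicate 2. Leukocyte markers (7 genes) summed to 130.2 to 166.5, 203.7 to 218.5, 207.8 to 283 and 99.09 to 145.7. In Klf5KO-labelled cells all 7 were called higher as measured, against 55.2% of all genes, and 2 after scaling, against 24.6%. Endothelial markers (5 genes) summed to 2.38 to 3.46, 6.89 to 9.36, 12.2 to 15.4 and 2.49 to 3.39. T and NK cell markers summed to 3.81 to 7.49 TPM in WT and 10.54 to 19.92 in the knockouts, with Ncr1 listed at 0 in all 3 Smad4KO libraries. The part of these cells in the levels of the replication and mitosis genes was not tested.

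Both sets of genes were higher in the knockout cells than in WT. The 22 replication genes summed to 782.3 to 829.7 TPM in WT, 984.8 to 1048 in EgfrKO, 924.7 to 1057 in Klf5KO-labelled and 922.5 to 986.3 in Smad4KO libraries. The 21 mitosis genes summed to 556.8 to 609.8, 781.1 to 823.7, 837.8 to 998.2 and 701.5 to 793.5 in the same order. No knockout library was as low as the highest WT library in either sum. The mean was lowest in WT for 19 of 22 replication genes, the exceptions being Pola1, Cdc45 and Ccne2, and for 20 of 21 mitosis genes, the exception being Cenpa, and in all 4 of these Smad4KO was lowest.

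The rise of single members has to be read against a rise of most genes. As measured, the median log2 fold change against WT over all genes tested was 0.14 in EgfrKO, 0.31 in Klf5KO-labelled and 0.10 in Smad4KO cells. Ribosomal protein genes, which took 19.7% to 20.1% of the TPM of WT libraries, took 12.6% to 14% in Klf5KO-labelled libraries and 17.7% to 19.5% in the other knockouts. Median-of-ratios scaling, which divides each library by the median of its ratios to the mean library over genes above 0 in every library, brought these medians to 0.00, -0.01 and 0.00. Each result is therefore given as measured and after this scaling, and members are set beside the share of all genes called in the same direction. A gene is called where limma's adjusted p is under 0.05. Every fold change is a difference of log2(TPM + 1) values, and the added 1 makes the changes of scarce transcripts look smaller than they were.

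After scaling, the mean was still lowest in WT for 17 of 21 mitosis genes but for only 11 of 22 replication genes. As measured, taking the mean log2(TPM + 1) of the mitosis list minus that of the replication list within a library, WT libraries stood at -0.12 to -0.09, EgfrKO at -0.05 to -0.01, Smad4KO at 0.00 to 0.10 and Klf5KO-labelled libraries at 0.14 to 0.23. After scaling the EgfrKO range was -0.05 to 0.00 and met that of Smad4KO at 0.00, and the other ranges were the same. The scaling divides a whole library by a single factor, which moves both lists nearly alike, so it could hardly change this difference and does not test it. WT lay below all 3 knockouts and Klf5KO-labelled libraries above the others. The 21 mitosis members thus stood higher relative to the 22 replication members in each knockout than in WT, with the largest shift in Klf5KO-labelled cells. The wider lists described below had this order only in Klf5KO-labelled cells. Their median log2 fold changes as measured were 0.69 for other mitosis and 0.51 for other replication genes there. In EgfrKO cells they were 0.34 and 0.41, and in Smad4KO cells 0.24 and 0.26.

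**Figure D1:**
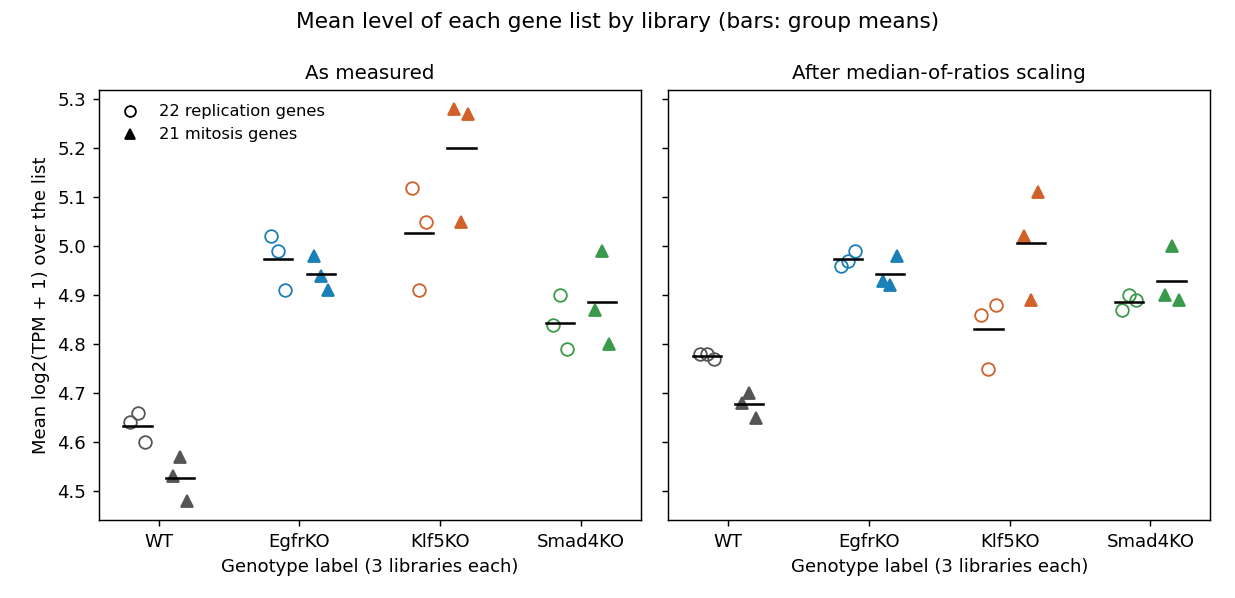
Mean log2(TPM + 1) over the 22 replication genes (open circles) and the 21 mitosis genes (triangles) in each of the 12 libraries by genotype label, as measured (left) and after median-of-ratios scaling (right), with a bar at the mean of each group of 3. After scaling the replication genes of Klf5KO-labelled libraries lie on both sides of WT, while the mitosis genes lie above WT in all 9 knockout libraries.

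**Figure D2:**
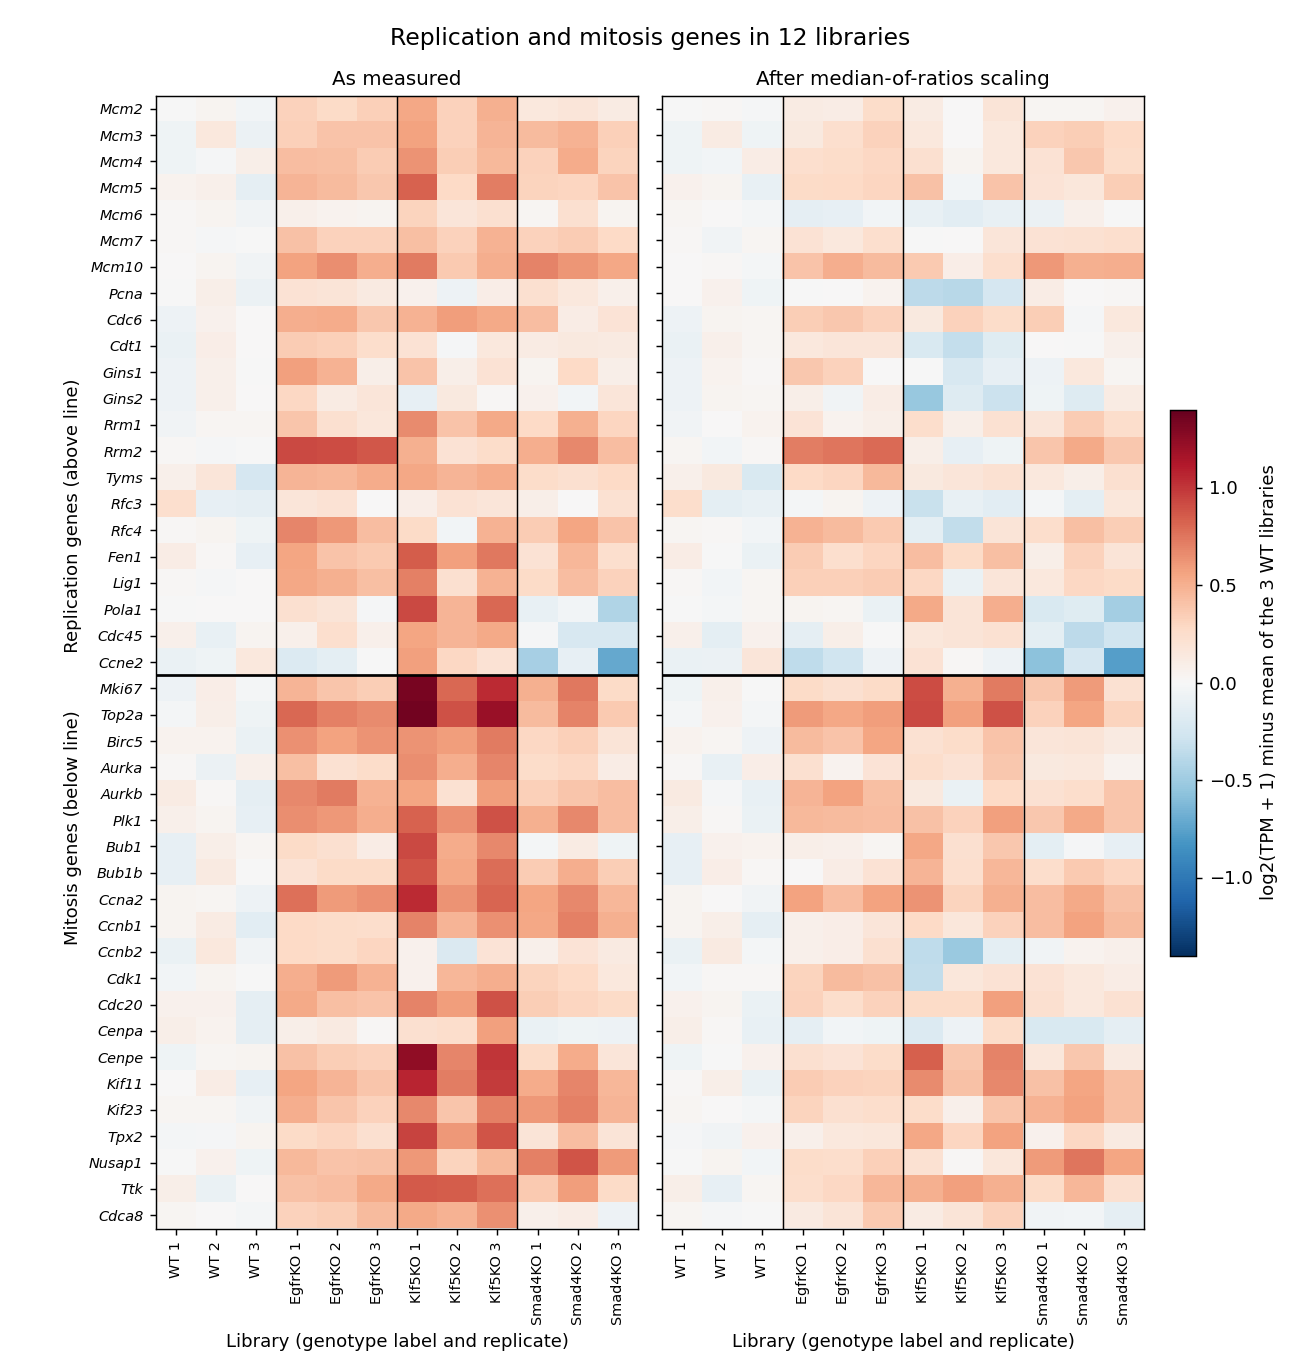
Each member (rows) in each library (columns) as log2(TPM + 1) minus the mean of the 3 WT libraries, as measured (left) and after median-of-ratios scaling (right), with red higher and blue lower than WT. Mki67, Top2a and Cenpe are reddest in Klf5KO-labelled cells, Rrm2 in EgfrKO cells, and Pcna, Gins2 and Ccnb2 turn blue in Klf5KO-labelled cells after scaling.

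In EgfrKO cells both replication genes and mitosis genes rose, and their medians were close. Of 22 replication genes 16 were called higher and 0 lower than WT, and of 21 mitosis genes 19 were called higher and 0 lower, against 31.3% of all genes higher and 12% lower. The median log2 fold change was 0.36 for replication and 0.41 for mitosis genes. After scaling, 13 replication and 12 mitosis genes were higher and 0 of either were lower, against 18% and 22.2% of all genes, with medians of 0.21 and 0.26. Leaving out EgfrKO replicate 1 took the count of mitosis genes called higher as measured from 19 to 12. The calls of Mki67, Aurka, Bub1b, Ccnb1, Ccnb2, Cenpe and Tpx2 as measured were each lost when 1 or another library was left out, and none of these 7 was called after scaling.

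Among the replication genes of EgfrKO cells, the clearest was Rrm2, the regulated subunit of ribonucleotide reductase, which makes deoxyribonucleotides. Rrm2 stood at 64.6, 63 and 63.2 TPM in the WT libraries and 121, 121 and 117 in EgfrKO, 90.2, 73.4 and 76.3 in Klf5KO-labelled and 90.8, 102 and 86.3 in Smad4KO libraries. No knockout library overlapped WT, and the EgfrKO libraries lay above all others. The log2 fold change in EgfrKO cells was 0.90 ± 0.08 (SE, adjusted p = 5.5e-06, limma), or 0.75 ± 0.06 after scaling (adjusted p = 3.2e-06). Rrm1, the large subunit of the same enzyme, rose less, by 0.25 ± 0.09 as measured (adjusted p = 0.032), and was not called after scaling (0.11), and the call as measured was lost without any 1 WT library or EgfrKO replicate 1 or 2. Tyms, which makes thymidylate, rose by 0.49 ± 0.09 (adjusted p = 0.0013) and by 0.34 after scaling.

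Mcm10, which helps start the replicative helicase, rose in all 3 knockouts as measured. It stood at 4.35, 4.46 and 4.16 TPM in WT, 6.89, 7.35 and 6.55 in EgfrKO, 7.83, 5.85 and 6.57 in Klf5KO-labelled and 7.64, 7.18 and 6.77 in Smad4KO libraries, with no overlap between WT and any knockout. Its log2 fold change was 0.57 ± 0.10 in EgfrKO cells (adjusted p = 0.00089), 0.53 ± 0.10 in Klf5KO-labelled (0.00062) and 0.62 ± 0.10 in Smad4KO cells (0.00033). After scaling the values were 0.45, 0.23 and 0.54, all called. Mcm10 was then the only replication gene called higher in all 3 comparisons, 4.55% of the list against 5.54% of all genes. As measured it was 1 of 10, 45.5% of the list against 14.2% of all genes. With the correction for length and GC content described below, the Klf5KO-labelled value was 0.09 and not called (adjusted p = 0.35), and 0 replication genes were higher in all 3. These comparisons share the WT libraries. The scaled call in Klf5KO-labelled cells was lost when any WT library, or Klf5KO replicate 1 or 3, was left out.

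The helicase itself, whose ring the Mcm2, Mcm3, Mcm4, Mcm5, Mcm6 and Mcm7 subunits form, rose in EgfrKO cells with 5 of its 6 genes, by 0.31 to 0.43, and the same 5 were called after scaling, at 0.16 to 0.29. The scaled calls of Mcm2, Mcm3 and Mcm5 were each lost without at least 1 library, that of Mcm5 in all 6 omissions. Mcm6 was the exception at 0.05 ± 0.06 (adjusted p = 0.49), with 86, 87 and 81.8 TPM in WT and 89.6, 87.9 and 87 in EgfrKO. Rfc4, a subunit of the clamp loader that places PCNA on DNA, stood at 15.3, 15.5 and 14.4 TPM in WT and 24.8, 23.4 and 20.7 in EgfrKO libraries, without overlap, a rise of 0.57 ± 0.12 (adjusted p = 0.0026). Rfc3, another subunit, differed by 0.13 and was not called. Pcna itself rose by only 0.17 ± 0.06 as measured and stood at 0.02 after scaling, and its call was lost without 5 of the 6 libraries in turn. Fen1 and Lig1, which trim and seal the fragments of the lagging strand, rose by 0.44 and 0.49, and by 0.29 and 0.34 after scaling. Pola1, the catalytic subunit of the polymerase that lays down primers, and Cdc45, a partner of the helicase, both stood at 0.13 and were not called. Of the genes that license origins, Cdc6 and Cdt1 rose by 0.47 and 0.31, and by 0.35 and 0.16 after scaling, the scaled call of Cdt1 being lost without any library but WT replicate 2. Gins1, a helicase subunit, rose by 0.38 as measured only, a call lost without WT replicate 1 or 3 or EgfrKO replicate 1 or 2, and Gins2 (0.19) and Ccne2 (-0.11) were not called.

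Among the mitosis genes of EgfrKO cells the largest rises were those of Top2a, Ccna2 and Aurkb. Top2a, which untangles sister chromatids, stood at 41, 44.5 and 40.3 TPM in WT and 73.6, 68.8 and 66.9 in EgfrKO libraries, a rise of 0.72 ± 0.11 (adjusted p = 0.0004) and of 0.57 after scaling. Ccna2, the cyclin A of S and G2 phase, stood at 35.1, 34.9 and 32.6 TPM in WT and 58.9, 52.2 and 53.7 in EgfrKO libraries, a rise of 0.67 ± 0.10 (adjusted p = 0.00023) and of 0.52 after scaling. Aurkb, the kinase of the chromosomal passenger complex, stood at 19, 17.6 and 15.9 TPM in WT and 28.5, 29.6 and 24.9 in EgfrKO libraries, a rise of 0.63 ± 0.10 (adjusted p = 0.00062) and of 0.49 after scaling. In all 3 the EgfrKO libraries lay wholly above WT. The other passenger subunits, Birc5 (survivin) and Cdca8 (borealin), rose by 0.61 and 0.37. Plk1, a kinase of mitotic entry and exit, rose by 0.59 and Cdc20, an activator of the anaphase-promoting complex, by 0.45, both called after scaling. The B-type cyclins, which drive entry into mitosis, were at 0.26 (Ccnb1) and 0.28 (Ccnb2), called as measured and not after scaling, whereas their kinase partner Cdk1 rose by 0.53 ± 0.10 (adjusted p = 0.0019) and by 0.39 after scaling, the scaled call being lost without WT replicate 1 (adjusted p = 0.055) or EgfrKO replicate 2 (0.065) or 3 (0.057). Cenpa, the histone variant of centromeres, and Bub1, a kinase of the spindle checkpoint, were the 2 mitosis genes not called, at 0.08 and 0.20.

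**Figure D3:**
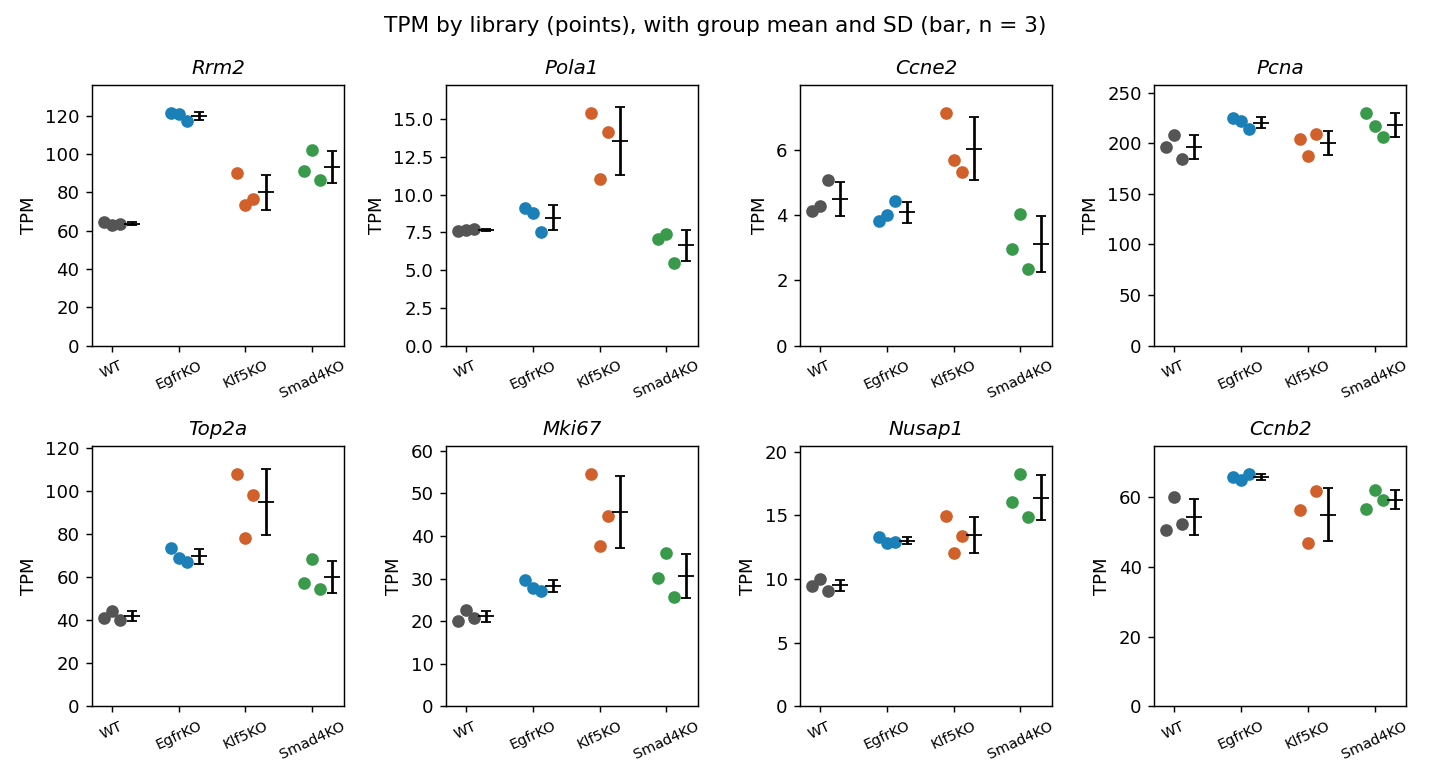
TPM of 8 members in each library (points) with the mean and SD of each group of 3 (bars), for 4 replication genes (top row) and 4 mitosis genes (bottom row). Rrm2 is highest in the EgfrKO libraries, and Pola1, Top2a and Mki67 in the Klf5KO-labelled libraries. On average, Nusap1 is highest and Ccne2 lowest in the Smad4KO libraries.

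In Klf5KO-labelled cells the mitosis genes were well above WT, while the 22 replication members rose about as much as genes in general. As measured, 20 of 21 mitosis genes and 15 of 22 replication genes were called higher and 0 lower, against 55.2% of all genes higher and 11.1% lower. The medians were 0.71 for mitosis and 0.45 for replication genes, beside 0.31 for all genes. After scaling, 16 mitosis genes were called higher and 1 lower, with a median of 0.37, whereas 4 replication genes were called higher and 4 lower, with a median of 0.10, against 24.6% of all genes higher and 27.5% lower. The share of replication genes called higher, 18.2%, was then below that of all genes. The 4 became 8 without Klf5KO replicate 2, and 2 without WT replicate 1 or Klf5KO replicate 3. Klf5KO replicate 2 was the lowest of its group for 18 of 22 replication and 18 of 21 mitosis genes as measured.

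The mitosis genes with the largest rises in Klf5KO-labelled cells were Top2a, Mki67 and Cenpe. Top2a stood at 108, 78.3 and 98.1 TPM, a rise of 1.15 ± 0.11 over WT (adjusted p = 6.1e-06) and of 0.79 ± 0.09 after scaling. Mki67, which coats mitotic chromosomes and is the antigen of the Ki-67 proliferation stain, stood at 20.1, 22.6 and 20.8 TPM in WT and 54.6, 37.8 and 44.6 in Klf5KO-labelled libraries, a rise of 1.06 ± 0.13 (adjusted p = 3.6e-05) and of 0.71 after scaling. Cenpe, a kinetochore motor, stood at 9.5, 10.1 and 10.3 TPM in WT and 24.9, 16.6 and 20.9, a rise of 0.97 ± 0.13 (adjusted p = 5e-05) and of 0.64 after scaling. In all 3 genes the lowest Klf5KO-labelled library lay above the highest WT library, by the smallest margin in replicate 2. The spindle motor Kif11, the spindle assembly factor Tpx2 and the checkpoint kinase Ttk rose by 0.92, 0.81 and 0.83, and by 0.58, 0.47 and 0.52 after scaling. Plk1, Cdc20, Bub1, Bub1b, Ccna2, Birc5 and Aurka also rose under both, by 0.61 to 0.83 as measured.

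Ccnb2 went the other way. It stood at 50.6, 60 and 52.1 TPM in WT and 56.3, 46.8 and 61.7 in Klf5KO-labelled libraries, which overlap, and its log2 fold change was 0.01 as measured. After scaling it was lower, by -0.34 ± 0.09 (adjusted p = 0.0092), while Ccnb1, the other B-type cyclin, was higher under both (0.61 and 0.26). Cdk1, their kinase, was at 17.1, 22.9 and 23.7 TPM in Klf5KO-labelled libraries against 15.9, 16.8 and 16.3 in WT, a rise of 0.34 ± 0.10 as measured (adjusted p = 0.012) that was at 0.00 after scaling and was lost as measured without Klf5KO replicate 3 (adjusted p = 0.057).

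Among the replication genes of Klf5KO-labelled cells, Pola1 and Fen1 had the largest rises. Pola1 stood at 7.62, 7.67 and 7.7 TPM in WT, 15.4, 11.1 and 14.2 in Klf5KO-labelled, 9.09, 8.81 and 7.55 in EgfrKO and 7.04, 7.41 and 5.46 in Smad4KO libraries. The Klf5KO-labelled libraries lay above all others, and the rise was 0.74 ± 0.13 (adjusted p = 0.0004) and 0.41 ± 0.11 after scaling (adjusted p = 0.0072). Pola1 is the longest replication member (5346 bases), and with the correction for length and GC content its value was 0.23 and not called (adjusted p = 0.051). Fen1 stood at 22.8, 21.4 and 19.4 TPM in WT and 38.7, 32 and 35.9 in Klf5KO-labelled libraries, a rise of 0.72 ± 0.09 (adjusted p = 5.1e-05) and of 0.37 after scaling. Mcm5 stood at 28.7, 29 and 25.3 TPM in WT and 49.7, 33.8 and 46 in Klf5KO-labelled libraries, above WT in all 3, with a rise of 0.61 ± 0.12 as measured (adjusted p = 0.00067) and no call after scaling (0.26, adjusted p = 0.058).

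The 4 replication genes that were lower after scaling were Pcna, Gins2, Cdt1 and Mcm6. Pcna, the sliding clamp of DNA polymerases and the most abundant member, stood at 196, 208 and 185 TPM in WT and 204, 187 and 209 in Klf5KO-labelled libraries, which overlap. Its log2 fold change was 0.03 as measured and -0.33 ± 0.05 after scaling (adjusted p = 0.00035), when it was at 219, 228 and 209 scaled TPM in WT and 169, 167 and 186 in Klf5KO-labelled libraries, without overlap. Gins2, a subunit of the GINS complex of the helicase, was at 0.01 as measured and -0.33 ± 0.09 after scaling (adjusted p = 0.012). Cdt1, which loads the helicase at origins, was at 0.11 as measured and -0.24 ± 0.06 after scaling (adjusted p = 0.0047). Mcm6 turned with the scaling, higher by 0.24 ± 0.06 as measured (adjusted p = 0.0037) and lower by -0.12 ± 0.05 after it (adjusted p = 0.049), a scaled call that was lost when any 1 of the 6 libraries was left out.

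Fold changes in Klf5KO-labelled cells moved with the length of the transcript. Length was that of the longest coding transcript of a gene, or of its longest transcript where none is coding. Over the 13459 genes matched (98.5% of those tested), Spearman's rho between length and log2 fold change was 0.36 in Klf5KO-labelled, -0.12 in EgfrKO and -0.04 in Smad4KO cells, given as a description. The median log2 fold change in Klf5KO-labelled cells was 0.03 for the shortest and 0.52 for the longest 20% of genes. Among the members rho was 0.53 over the 22 replication and 0.61 over the 21 mitosis genes. Mki67 (10061 bases), Cenpe (7910) and Top2a (5221), which rose most, are among the longest members, while Pcna (1518), Ccnb2 (1531) and Cenpa (1466) are among the shortest. Not every member followed length. Plk1 (2199 bases) and Cdc20 (1793) rose by 0.79 and 0.73 as measured, while Gins2 (3900) stood at 0.01. What makes the fold change follow length was not tested.

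A correction for length and GC content, fitted to each library by a spline over all genes after the scaling and chosen after the data had been seen, left the contrast between both lists in place. In Klf5KO-labelled cells 15 of 21 mitosis genes were then higher and 0 lower with a median of 0.34, and 2 of 22 replication genes were higher and 3 lower with a median of 0.08, against 22.8% of all genes higher and 26.9% lower. Mki67 fell back to 0.44 (adjusted p = 0.00044) and Cenpe to 0.40, while Top2a stood at 0.62 and Plk1 and Cdc20, both short, went up to 0.56 each. Pcna (-0.19), Gins2 (-0.39) and Mcm6 (-0.25) were still lower, while Cdt1 (-0.09, adjusted p = 0.28) and Ccnb2 (-0.19, adjusted p = 0.12) were no longer called. In EgfrKO cells 12 replication and 14 mitosis genes were higher and 0 lower, against 20.5% and 22.5%, and in Smad4KO cells 7 replication genes were higher and 3 lower and 13 mitosis genes higher and 0 lower, against 27.6% and 25.4%. The mean log2 of mitosis minus replication genes after this correction was -0.13 to -0.08 in WT, -0.04 to 0.00 in EgfrKO, 0.03 to 0.10 in Smad4KO and 0.12 to 0.20 in Klf5KO-labelled libraries.

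**Figure D4:**
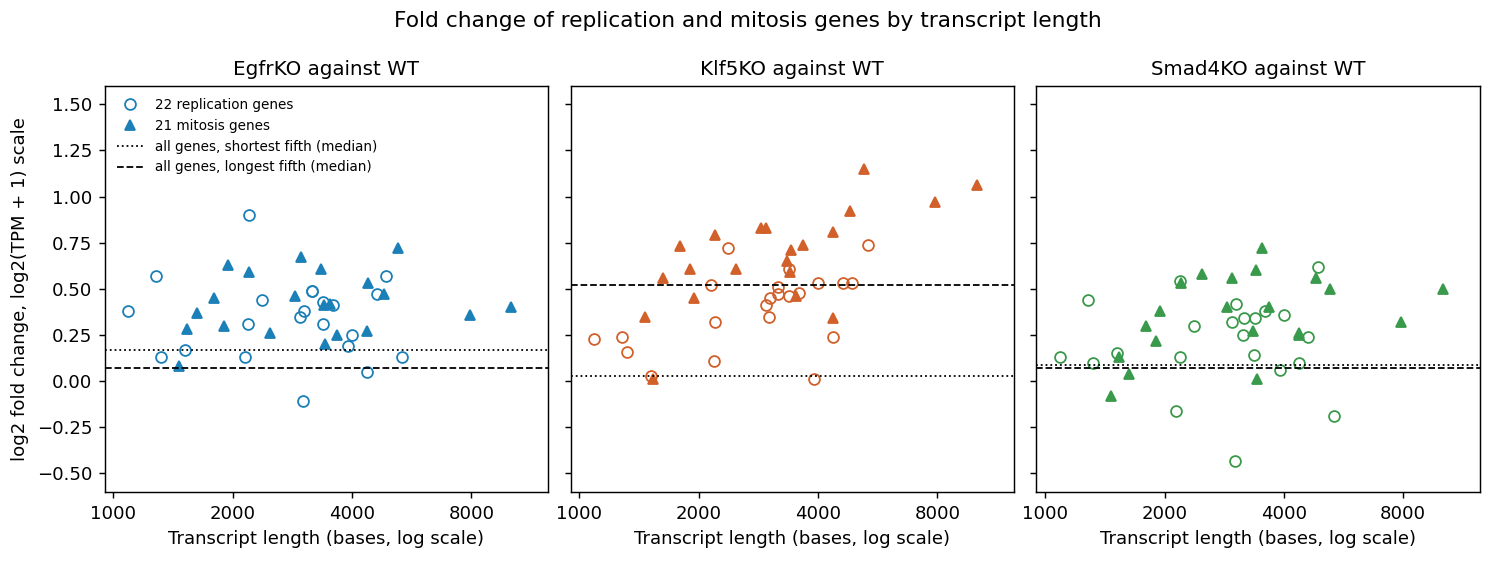
Log2 fold change against WT as measured (y axis, log2(TPM + 1) scale) by transcript length in bases (x axis, log scale) for the 22 replication genes (open circles) and 21 mitosis genes (triangles), with lines at the median of the shortest and longest 20% of all genes. In Klf5KO-labelled cells the members climb with length (rho 0.53 and 0.61) and the lines lie at 0.03 and 0.52, while the lines lie at 0.17 and 0.07 in EgfrKO and at 0.09 and 0.07 in Smad4KO cells.

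In Smad4KO cells the mitosis members were called higher more often than the replication members, and 3 replication members were at their lowest. Among the other genes of each pathway the order was the reverse. As measured 45.2% of other mitosis and 56.8% of other replication genes were higher, and after scaling 35.5% and 38.6%. As measured, 15 of 21 mitosis genes were called higher and 0 lower with a median of 0.38, and 11 of 22 replication genes were called higher and 1 lower with a median of 0.25, against 32.2% of all genes higher and 17.4% lower. After scaling, 12 mitosis genes were higher and 0 lower with a median of 0.28, and 8 replication genes were higher and 3 lower with a median of 0.16, against 25.1% and 24.7% of all genes.

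The mitosis genes that rose most in Smad4KO cells were Nusap1, Kif23 and Ccnb1. Nusap1, which bundles spindle microtubules, stood at 9.46, 9.96 and 9.05 TPM in WT, 16, 18.3 and 14.8 in Smad4KO, 13.3, 12.8 and 12.9 in EgfrKO and 14.9, 12 and 13.4 in Klf5KO-labelled libraries. All knockout libraries lay above WT, and the Smad4KO rise was 0.72 ± 0.09 (adjusted p = 5e-05) and 0.63 ± 0.07 after scaling (adjusted p = 2.4e-05). Kif23, a kinesin of the central spindle needed for cytokinesis, stood at 30.2, 30.4 and 28.6 TPM in WT and 45.8, 49.3 and 41.7 in Smad4KO libraries, a rise of 0.60 ± 0.09 (adjusted p = 0.0002) and of 0.49 after scaling. Ccnb1 stood at 30.2, 31.8 and 26.3 TPM in WT and 43.4, 48.6 and 42 in Smad4KO libraries, a rise of 0.58 ± 0.08 (adjusted p = 0.00012) and of 0.48 after scaling, while Ccnb2 differed by 0.13 and was not called. Smad4KO replicate 2 was the highest of its group for 18 of 21 mitosis genes. The same library had the lowest macrophage sum, 184.8 TPM against 813.6 and 805.1 in the others of its group, and the highest epithelial sum, 8814 TPM. Without it 13 mitosis and 8 replication genes were called higher as measured, and 10 and 6 after scaling. The passenger subunits parted, with Aurkb at 0.38 (adjusted p = 0.0098), Birc5 at 0.27 (adjusted p = 0.0029) and Cdca8 at 0.04 and not called. The checkpoint kinases parted as well, with Ttk and Bub1b (BubR1) both at 0.40 and called, and Bub1 at 0.01 and not called.

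Among the replication genes of Smad4KO cells the largest rises were those of Mcm10 (0.62, above), Rrm2 (0.54 ± 0.08, adjusted p = 0.00013) and Rfc4 (0.44 ± 0.12, adjusted p = 0.01), at 0.54, 0.43 and 0.33 after scaling. Rfc4 stood at 19.5, 22.6 and 20.2 TPM in Smad4KO libraries, above the 14.4 to 15.5 of WT, and its scaled call was lost when WT replicate 2 or 3, or Smad4KO replicate 2 or 3, was left out. Of the helicase ring Mcm3, Mcm4, Mcm5 and Mcm7 rose by 0.32 to 0.42 as measured, while Mcm2 (0.14) and Mcm6 (0.10) were not called. Mcm5, Tyms, Fen1 and Lig1 each lost their call as measured without at least 1 library.

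Ccne2, a cyclin E that with Cdk2 starts S phase, was the 1 member called lower than WT as measured. It stood at 4.13, 4.27 and 5.08 TPM in WT and 2.96, 4.04 and 2.34 in Smad4KO libraries, with the highest Smad4KO library just under the lowest WT library. In Klf5KO-labelled libraries it stood at 7.13, 5.67 and 5.31 TPM and in EgfrKO at 3.81, 3.99 and 4.44. The Smad4KO log2 fold change was -0.43 ± 0.15 (adjusted p = 0.034) and -0.53 ± 0.14 after scaling (adjusted p = 0.0099). The call as measured was lost without WT replicate 2 (adjusted p = 0.057), WT replicate 3 (0.12), Smad4KO replicate 1 (0.084) or Smad4KO replicate 3 (0.13), while the scaled call was kept in all 6. After scaling Pola1 (-0.29 ± 0.11, adjusted p = 0.04) and Cdc45 (-0.26 ± 0.08, adjusted p = 0.02) were also lower. Cdc45 stood at 14.3, 12.6 and 14 TPM in WT and 13.39, 11.45 and 11.47 in Smad4KO libraries, which overlap as measured. The count of 3 lower after scaling fell to 1 without WT replicate 1, WT replicate 3 or Smad4KO replicate 3.

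Direct comparisons of the knockouts took no WT level, but their error was estimated over all 12 libraries, WT included. With only the 2 groups compared in the fit, EgfrKO against Klf5KO-labelled cells gave 1 replication and 0 mitosis genes higher in place of 3 and 1, and EgfrKO against Smad4KO cells 5 and 4 in place of 3 and 2. EgfrKO against Klf5KO-labelled cells gave 1 mitosis gene higher and 13 lower as measured, with a median of -0.28, and 3 replication genes higher and 7 lower, with a median of -0.06, against 14.7% of all genes higher and 40.5% lower. The 7 became 2 without EgfrKO replicate 2 or Klf5KO replicate 1 and 3 without EgfrKO replicate 3, and the 3 became 1 without EgfrKO replicate 1 or 2. The 1 mitosis gene that was higher, Ccnb2, lost its call without any 1 EgfrKO library or Klf5KO replicate 2. After scaling the replication genes turned, with 9 higher and 1 lower and a median of 0.14, while 4 mitosis genes were higher and 6 lower with a median of -0.07, against 26.4% and 25.3% of all genes. With the correction for length and GC content, 10 replication genes were higher and 1 lower and 4 mitosis genes higher and 6 lower, against 24.1% and 21.1%. Rrm2 was higher in EgfrKO cells under all 3, by 0.58 ± 0.08 (adjusted p = 7.4e-05), 0.79 and 0.70. Cdt1 was higher by 0.20 and 0.40 as measured and scaled, and Pcna by 0.34 after scaling. Pola1, lower by -0.61 as measured and -0.42 after scaling, and Mki67, lower by -0.66 and -0.46, were not called once length and GC content were corrected for (-0.19 and -0.07). Bub1 was lower in all 3, by -0.51, -0.32 and -0.25.

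EgfrKO against Smad4KO cells gave the fewest members called. Of the replication genes 3 were higher in EgfrKO and 0 lower, and of the mitosis genes 2 were higher and 2 lower, against 18.7% and 14.5% of all genes. After scaling 2 replication genes were higher and 0 lower and 2 mitosis genes higher and 3 lower, against 16.5% and 19.6%, and after the length and GC correction 3 and 1 replication and 2 and 3 mitosis genes, against 17.7% and 21.6%. Birc5 was higher in EgfrKO cells by 0.35 ± 0.06 (adjusted p = 0.00091), Cdca8 by 0.34 ± 0.06 (0.0018) and Rrm2 by 0.36 ± 0.08 (0.0038), and Ccnb1 and Nusap1 were lower by -0.32 ± 0.08 (0.01) and -0.31 ± 0.09 (0.023), all in the same direction and called after scaling. The 3 replication genes became 1 without EgfrKO replicate 2 or Smad4KO replicate 3, and the 2 mitosis genes that were lower became 1 without EgfrKO replicate 2 or 3 or Smad4KO replicate 1 or 2.

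Klf5KO-labelled against Smad4KO cells gave 15 mitosis genes higher and 1 lower, with a median of 0.38, and 7 replication genes higher and 1 lower, with a median of 0.12, against 45.5% of all genes higher and 18.3% lower. The 7 became 11 without Klf5KO replicate 2. The 1 mitosis gene that was lower, Nusap1, lost its call without Klf5KO replicate 2 or 3 or Smad4KO replicate 2, and the 1 replication gene, Rrm2, without Klf5KO replicate 2 or Smad4KO replicate 2. After scaling 6 mitosis genes were higher and 4 lower and 3 replication genes higher and 8 lower, against 29.1% and 31.2%, and after the length and GC correction 5 and 3 mitosis and 4 and 9 replication genes, against 27.8% and 32.6%. The 3 replication genes higher after scaling were Pola1 (0.70 ± 0.11, adjusted p = 0.00016), Cdc45 (0.44 ± 0.08, adjusted p = 0.00063) and Ccne2 (0.58 ± 0.14, adjusted p = 0.0046). They are the 3 that were lower in Smad4KO cells after scaling, and the comparisons share the Smad4KO libraries. Pcna (-0.37), Rrm2 (-0.47) and Rfc4 (-0.44) were among the 8 lower. Nusap1 was lower in Klf5KO-labelled cells by -0.27 as measured and -0.50 after scaling, and Bub1 and Cdca8 were higher by 0.70 and 0.52 as measured and by 0.47 and 0.27 after scaling.

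In the rest of each pathway called genes were mostly higher, read against the shares of all genes. Of 44 other replication genes 34 were called higher and 0 lower in EgfrKO cells, 35 and 0 in Klf5KO-labelled and 25 and 0 in Smad4KO cells, and after scaling 25 and 0, 21 and 5, and 17 and 1. The shares higher were 77.3%, 79.5% and 56.8%, against 31.3%, 55.2% and 32.2% of all genes, and after scaling 56.8%, 47.7% and 38.6%, against 18%, 24.6% and 25.1%. In Klf5KO-labelled cells after scaling this list thus differed from the 22 replication members, of which 18.2% were called higher. No test compared the lists. Rpa1, of the complex that coats single-stranded DNA, rose by 0.44 ± 0.06 in EgfrKO cells (adjusted p = 0.00016) and 0.81 ± 0.06 in Klf5KO-labelled cells (adjusted p = 9.8e-07) and stood at 0.08 in Smad4KO cells, not called. Rfc1, the large subunit of the clamp loader, rose in all 3, by 0.40, 0.82 and 0.35, and Asf1b, a histone chaperone of replicating chromatin, by 0.42, 0.63 and 0.26. All of these calls held after scaling.

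Of 62 other mitosis genes 42 were called higher and 1 lower in EgfrKO cells, 54 and 0 in Klf5KO-labelled and 28 and 3 in Smad4KO cells, and after scaling 22 and 2, 40 and 6, and 22 and 3. The shares higher were 67.7%, 87.1% and 45.2%, against 31.3%, 55.2% and 32.2% of all genes, and after scaling 35.5%, 64.5% and 35.5%, against 18%, 24.6% and 25.1%. Among the 21 members the shares were 90.5%, 95.2% and 71.4% as measured and 57.1%, 76.2% and 57.1% after scaling, and no test compared the lists. In EgfrKO and Smad4KO cells the other mitosis genes were called higher less often than the other replication genes, as measured and after scaling. The members had the reverse order as measured. The kinesins Kif20b, Kif20a and Kif2c rose most clearly in Klf5KO-labelled cells, by 1.22 ± 0.11, 1.03 ± 0.10 and 0.92 ± 0.07, and by 0.88, 0.68 and 0.58 after scaling. Kif2c, which takes apart microtubules at kinetochores, stood at 13.9, 13 and 13.2 TPM in WT, 27.9, 23.6 and 27.1 in Klf5KO-labelled, 19.3, 17.8 and 18.7 in EgfrKO and 13.9, 14.9 and 13.8 in Smad4KO libraries. The EgfrKO and Klf5KO-labelled libraries lay above WT and the Smad4KO libraries overlapped it.

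The factors that regulate both waves did not all follow them. Of 20 genes of E2F, DREAM and MuvB, 8 were called higher and 0 lower in EgfrKO cells, 16 and 1 in Klf5KO-labelled and 8 and 2 in Smad4KO cells, and after scaling 6 and 1, 9 and 1, and 5 and 4. The shares higher were 40%, 80% and 40%, against 31.3%, 55.2% and 32.2% of all genes, and after scaling 30%, 45% and 25%, against 18%, 24.6% and 25.1%, so that Smad4KO cells were near the background. Foxm1 stood at 27.8, 26.9 and 27.1 TPM in WT and 56, 41.9 and 51.3 in Klf5KO-labelled libraries, wholly above WT, a rise of 0.83 ± 0.10 (adjusted p = 2.3e-05) and of 0.48 after scaling. It was at 32.7, 30.8 and 29.5 TPM in EgfrKO and 26.2, 29.4 and 24.3 in Smad4KO libraries, with log2 fold changes of 0.18 and -0.04 that were not called. Mybl2, which encodes B-MYB, rose in all 3 as measured, by 0.58, 0.48 and 0.52, and after scaling in EgfrKO (0.45) and Smad4KO cells (0.43) but not in Klf5KO-labelled cells (0.17, adjusted p = 0.25). E2f1 was lower in Smad4KO cells by -0.31 ± 0.08 (adjusted p = 0.0083) and by -0.41 after scaling, with 11.3, 11.1 and 12.4 TPM in WT and 9.42, 9.07 and 8.86 in Smad4KO libraries, which did not overlap. In EgfrKO cells it was at 0.07 and not called, and in Klf5KO-labelled cells at 0.34 as measured (adjusted p = 0.0037) and 0.00 after scaling. Tfdp1, the partner subunit of E2F, rose in all 3 under both, by 0.35, 0.57 and 0.32 as measured. Rbbp4, a histone-binding subunit of DREAM, was higher in Klf5KO-labelled cells by 0.45 as measured and not called after scaling (0.10), and was lower in Smad4KO cells under both (-0.17 and -0.28).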

How the data were processed

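RNA of 12 libraries, 3 for each of 4 genotype labels, was quantified by the authors, who deposited gene-level TPM, a length-corrected share of each library's transcripts. Salmon and mm10 are named, per the submitters' processing notes, with no version given in the sources used here. TPM keeps no depth, so the depth and counting error are unknown. All columns were used. The labels do not say whether replicates came from separate animals, so p-values measure only the spread between these libraries.

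From the deposited TPM, log2(TPM + 1) was fitted with limma 3.58.1 in R 4.3.3 (4 genotype means, 8 residual degrees of freedom, a trend in the spread, two-sided tests) for 13662 of 24493 genes that reached 1 TPM in 3 or more libraries. P-values were Benjamini-Hochberg adjusted over all genes within each of 6 contrasts, with a threshold of 0.05. The fits were tested on simulated data. Every fit was repeated after median-of-ratios scaling, and after it with a spline correction (4 degrees of freedom) for transcript length and GC content. These were taken from the longest coding GENCODE transcript, or from the longest transcript where none is coding. Other alternatives were quantile normalization, a pseudocount of 0.1, other filters, leaving out abundant or ribosomal protein genes, other fits and leaving out each library.

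The members and lists were chosen with earlier results of these data known. Members named by rule were, in each contrast against WT and each list, the 3 greatest rises and the 3 greatest falls past the threshold. The rule was used as measured and scaled, and it also took members called against the direction of their list. Library values of Gins2 and Cdt1 are not printed, and for some others only some groups are. From each wider list up to 3 genes with the smallest adjusted p were named, with Foxm1, Mybl2 and E2f1. Other members named with values were chosen after their values were seen.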

Additional observations from a re-analysis of the deposited data

How the results depend on the processing

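Scaling decided more than any other choice. The member counts listed in this section are those that moved by more than 1.5 times, or to or from 0. Other counts are left out. The share of all genes called was taken only as measured, after median-of-ratios scaling and with the length and GC correction. Counts under the other settings have no such share beside them and cannot be read against it. After median-of-ratios scaling the mitosis genes called higher numbered 12 in EgfrKO against WT, 4 in EgfrKO against Klf5KO and 6 in Klf5KO against Smad4KO, and those called lower 1 in Klf5KO against WT, 6 in EgfrKO against Klf5KO and 4 in Klf5KO against Smad4KO. The replication genes called higher numbered 4 in Klf5KO against WT, 9 in EgfrKO against Klf5KO and 3 in Klf5KO against Smad4KO, and those lower 4 in Klf5KO against WT, 3 in Smad4KO against WT, 1 in EgfrKO against Klf5KO and 8 in Klf5KO against Smad4KO. With quantile normalization mitosis genes higher were 11 in EgfrKO against WT and 3 in EgfrKO against Klf5KO, and lower 1 in Klf5KO against WT, 7 in EgfrKO against Klf5KO and 4 in Klf5KO against Smad4KO. Replication genes higher were 6 in Klf5KO against WT, 7 in Smad4KO against WT, 7 in EgfrKO against Klf5KO, 5 in EgfrKO against Smad4KO and 4 in Klf5KO against Smad4KO, and lower 2, 3, 1 and 6 in Klf5KO and Smad4KO against WT, EgfrKO against Klf5KO and Klf5KO against Smad4KO. With the length and GC correction after scaling mitosis genes higher were 4 in EgfrKO against Klf5KO and 5 in Klf5KO against Smad4KO, and lower 6 and 3. Replication genes higher were 2 in Klf5KO against WT, 7 in Smad4KO against WT, 10 in EgfrKO against Klf5KO and 4 in Klf5KO against Smad4KO, and lower 3, 3, 1 and 9, with 1 in EgfrKO against Smad4KO.

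Single genes that turned in Klf5KO against WT after scaling were Mcm6 (-0.12), Pcna (-0.33), Cdt1 (-0.24), Gins2 (-0.33), Rrm2 (-0.03), Ccnb2 (-0.34) and Cenpa (0.00), and in EgfrKO against WT Rbbp4 (-0.15). With quantile normalization they were Cdt1 (-0.21), Gins2 (-0.30), Ccnb2 (-0.26), Cdk1 (-0.01) and E2f1 (-0.04). With the length and GC correction they were Mcm6 (-0.25), Pcna (-0.19), Gins2 (-0.39), Rrm2 (-0.01), Cdk1 (-0.13) and Rbbp4 (-0.05), and Pcna in EgfrKO against WT (-0.06). The cause was not tested.

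Without ribosomal protein genes EgfrKO against Klf5KO gave 3 mitosis genes higher and 5 replication genes higher and 2 lower, and Klf5KO against Smad4KO 2 replication genes lower. Fitting only the groups compared, with fewer samples, gave 0 mitosis and 1 replication gene higher in EgfrKO against Klf5KO, 4 and 5 higher in EgfrKO against Smad4KO, 0 of either lower in Klf5KO against Smad4KO and 0 replication genes lower in Smad4KO against WT. That last count was also 0 with no filter, with a filter at a mean of 5 TPM, and with the replicate block. A pseudocount of 0.1, no trend and leaving out the 20 most abundant genes kept 24 of 24 member counts within 1.5 times.

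Replicate numbers did not pair the libraries: deviations of same-numbered libraries correlated at -0.15 to 0.12 over 18 pairs and others at -0.13 to 0.17 over 36, and 3 of 12 libraries correlated best with their own number. With the replicate block 23 of 24 member counts stayed within 1.5 times. With the replicate block after median-of-ratios scaling, mitosis genes higher were 12 in EgfrKO against WT, 4 in EgfrKO against Klf5KO and 6 in Klf5KO against Smad4KO, and lower 1 in Klf5KO against WT, 6 and 4. Replication genes higher under that block were 3 in Klf5KO against WT, 7 in EgfrKO against Klf5KO, 1 in EgfrKO against Smad4KO and 3 in Klf5KO against Smad4KO, and lower 3, 2, 1 and 8 in Klf5KO and Smad4KO against WT, EgfrKO against Klf5KO and Klf5KO against Smad4KO. In this balanced design the block cannot move a fold change, so Mcm6 (-0.12), Pcna (-0.33), Cdt1 (-0.24), Gins2 (-0.33), Rrm2 (-0.03), Ccnb2 (-0.34), Cenpa (0.00) and Rbbp4 (-0.15) have their scaled values under it, and Mcm6 lost its call (adjusted p = 0.073, limma).

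Leaving out 1 library at a time gave 12 to 17 mitosis genes higher in EgfrKO against WT, 0 to 1 in EgfrKO against Klf5KO, and 1 to 2 lower in EgfrKO against Smad4KO and 0 to 1 in Klf5KO against Smad4KO. Replication genes higher were 1 to 4 in EgfrKO against Klf5KO, 1 to 3 in EgfrKO against Smad4KO and 5 to 11 in Klf5KO against Smad4KO, and lower 2 to 8 in EgfrKO against Klf5KO, 0 to 1 in Klf5KO against Smad4KO and 0 to 1 in Smad4KO against WT. After scaling, replication genes higher in Klf5KO against WT were 2 to 8 and lower in Smad4KO against WT 1 to 2. The precision is limited by 3 libraries a group and by the unknown depth.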
